A study of Homo sapiens with 30 samples.

Results

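The NADPH oxidases and their subunits were studied as 8 genes, NOX1, NOXO1, NOXA1, CYBA, DUOX2, DUOXA2, DUOX1 and RAC1, out of 60675 genes in the deposited count table. The members were selected on measured values: NOX1 was chosen by its lower level with 500 than with 20 µg/mL of Banhasasim-tang in these same libraries, and the other 7 genes were taken as its partners and relatives in gut epithelium. Values of the Banhasasim-tang 500 µg/mL libraries are therefore a description here and carry no test. The libraries are mRNA sequencing of whole cultures of HT29, an established human line from a colorectal adenocarcinoma, read 24 h after treatment. Cells were given an ethanol extract (70% ethanol) of 1 of 4 Korean herbal formulas, each at 20, 100 and 500 µg/mL, or the vehicle, labelled 0.1% DMSO. There were 2 libraries a dose for Banhasasim-tang (replicates 2 and 3), 3 a dose for Bojungikgi-tang, 3 a dose for Sayeok-tang, 1 a dose for Yijung-tang (replicate 3) and 3 of the vehicle. The treatment labels of the extract libraries give no DMSO content. All 30 libraries come from 1 tumour line, and the labels do not tell whether the replicates of a group grew as separate cultures. The p-values then measure only the spread between these libraries, which may be technical.

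NADPH oxidases pass electrons from NADPH across a membrane to oxygen and so make superoxide or hydrogen peroxide on purpose. NOX1 is the catalytic subunit of the main oxidase of colon epithelium. It is held in the membrane by p22phox, encoded by CYBA, and works with the organizer NOXO1, the activator NOXA1 and the small GTPase RAC1. DUOX1 and DUOX2 release hydrogen peroxide directly and need their maturation factors, DUOXA1 and DUOXA2, to leave the endoplasmic reticulum. In the gut these enzymes are known for defence against microbes and for signals in epithelial renewal.

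The stretch before the transcription start is shown for NOX1, the member whose RNA was called between doses, for NOXO1, its organizer, whose RNA passed no test between the same doses, and for the DUOX2 and DUOXA2 pair, which start back to back. The sequences are RefSeq's on GRCh38.p14, where 7 of the 8 members have a promoter window, and each is written 5′ to 3′ on the strand of the named gene. In NOX1 (X:100874360-100874609, minus strand) the capitals mark 2 matches to GATAA, a core bound by GATA factors, and 1 match to TTTATG, a core bound by CDX factors. NOXO1 (16:1981470-1981719, minus strand) has no capitals, and its RefSeq start lies inside the longer NOXO1 gene of GENCODE 29 used here for exon length. In the DUOX stretch (15:45114173-45114325, plus strand, read toward DUOXA2) the capitals mark a TATAAA match. In GENCODE 29 the 2 genes share 24 exonic bases on opposite strands, and the stretch lies inside its longer DUOX2 gene.
NOX1: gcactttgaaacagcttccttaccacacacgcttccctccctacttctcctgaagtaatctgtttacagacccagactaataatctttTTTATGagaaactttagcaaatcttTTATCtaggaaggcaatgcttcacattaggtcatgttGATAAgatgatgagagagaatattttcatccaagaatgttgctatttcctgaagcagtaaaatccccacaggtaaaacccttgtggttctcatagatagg
NOXO1: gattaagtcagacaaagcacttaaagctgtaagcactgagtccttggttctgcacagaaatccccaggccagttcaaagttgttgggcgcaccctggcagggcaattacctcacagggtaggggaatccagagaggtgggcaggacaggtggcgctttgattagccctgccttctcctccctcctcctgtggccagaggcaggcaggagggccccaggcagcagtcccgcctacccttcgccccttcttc
DUOX2-DUOXA2: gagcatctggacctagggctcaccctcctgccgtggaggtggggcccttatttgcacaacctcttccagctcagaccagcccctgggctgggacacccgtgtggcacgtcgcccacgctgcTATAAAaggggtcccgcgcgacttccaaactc

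Motifs were searched by exact match on both strands of windows of 300 bases, 250 before and 50 after each start. In NOX1 the GATAA matches lie 137 bases (minus strand) and 100 bases (plus strand) before the start, the TTTATG match lies 162 bases before it, and none overlaps another. GATAA occurs in 22.7% and TTTATG in 10.6% of 35116 such windows, so neither is rare. Searches in NOX1 covered 5 factor motifs and TATAAA, and TATAAA had no match there. Neither NOX1 nor NOXO1 holds TGANTCA (AP-1, in 7.71% of windows), GTTAAT (HNF1 half-site, 6.88%) or TTCNNNGAA (STAT, 7.66%). NOXO1 holds neither GATAA nor TTTATG. The TATAAA match lies 32 bases before the DUOXA2 start, and 11.5% of windows hold that motif. The RefSeq starts of DUOX2 and DUOXA2 are 154 bases apart on opposite strands. A match is a description of the letters only.

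Depth was 36273894 to 71625621 expected counts a library. The label of the cell line was checked against its markers. The 10 colon epithelium genes summed to 9960 to 13363 CPM (counts scaled to a common library total by TMM), led by the keratins KRT8 and KRT18, while CDX2, CDH17 and GPA33 were low, with medians of 6.03, 4.76 and 4.54 CPM. The 8 leukocyte genes summed to 11 to 16 CPM, with PTPRC, ITGB2 and CSF1R at a median of 3 counts or fewer, and the fibroblast (0.959 to 1.75 CPM) and endothelial (1.3 to 2.25 CPM) lists were near 0. A few libraries stood apart before any comparison. On the first principal component (37.2% of variance), vehicle replicate 1 lay at -25.81, against -10.49 and -6.18 for the other vehicle libraries, and Bojungikgi-tang 500 µg/mL replicate 2 lay at 19.49. The Banhasasim-tang 500 µg/mL libraries held 12.862% and 9.408% of their counts in mitochondrial ribosomal RNA, against at most 1.914% in any other library.

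Per kilobase of exon, the members fell into tiers that differed by far more than the spread over libraries. RAC1 was highest, with a median level of 218 CPM per kb over the 30 libraries, and CYBA followed at 114 CPM per kb. These broadly used subunits stood well above the catalytic subunit: the median level of CYBA was 14.4 times that of NOX1. NOXO1 (9.59 CPM per kb) and NOX1 (7.89 CPM per kb) had similar levels, with a ratio of 1.22. The activator NOXA1 was at 0.389 CPM per kb, so the level of NOX1 was 20.3 times and that of NOXO1 24.7 times that of NOXA1. Among the dual oxidases, DUOX1 was at 0.38 CPM per kb and DUOX2 at 0.0134 CPM per kb. DUOXA2 had a median of 0. The plot of levels per exon length shows these tiers.

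**Figure D1:**
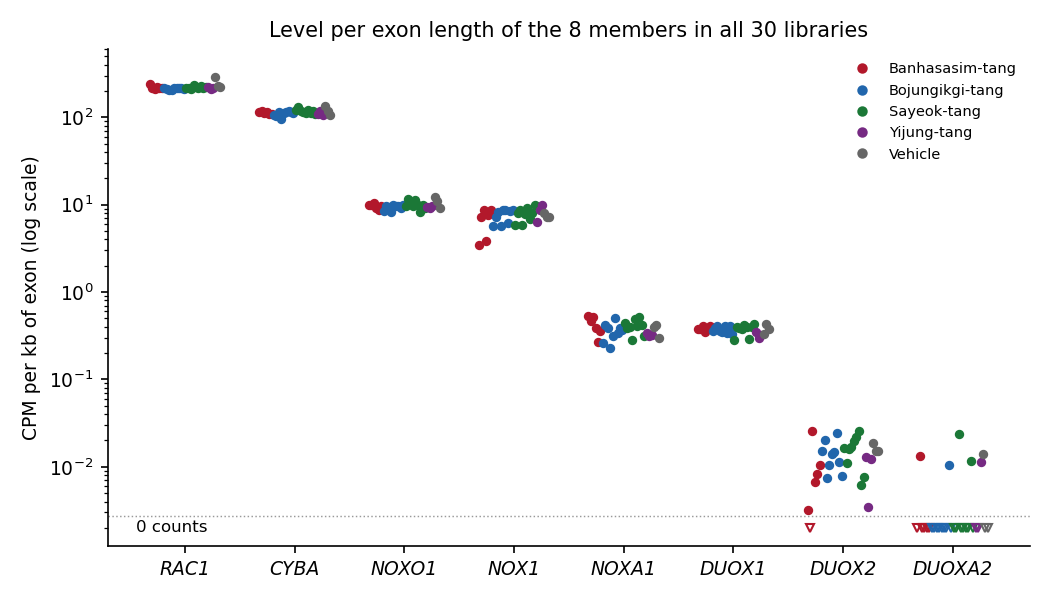
Level of each of the 8 members in CPM per kb of exon (log axis), 1 point a library, coloured by extract, with open triangles for libraries at 0 counts. RAC1 and CYBA lie at medians of 218 and 114, NOXO1 and NOX1 at 9.59 and 7.89, NOXA1 and DUOX1 near 0.4, and the low NOX1 points are the 500 µg/mL libraries.

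NOX1 (ENSG00000007952, GRCh38 X:100843324-100874345, minus strand) had the widest range, as a ratio of highest to lowest level, of the 5 members that were above 1 CPM in each library. It spanned 8.77 to 25.1 CPM, on 415 to 1561 counts a library, and its highest level was 2.87 times its lowest. The lowest levels are those of the Banhasasim-tang 500 µg/mL libraries on which NOX1 was chosen, and over the other 28 libraries NOX1 spanned 14.4 to 25.1 CPM, a ratio of 1.75. Over all 30 libraries the ratio was 1.49 for NOXO1, 1.43 for CYBA, 1.52 for DUOX1 and 1.39 for RAC1. In bulk RNA, fewer cells that express NOX1 and less NOX1 RNA per cell cannot be told apart.

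With Sayeok-tang, NOX1 had 14.9, 14.8 and 17.5 CPM at 500 µg/mL, against 22.1, 23.4 and 25.1 CPM at 20 µg/mL. The groups did not overlap, and the highest 500 µg/mL library stayed below the lowest 20 µg/mL library. NOX1 fell by 0.59 ± 0.07 (SE) on the log2 scale, a ratio of 0.667 (95% interval of the log2 value -0.73 to -0.44; quasi-likelihood test of edgeR, adjusted p = 8.9e-06 by Benjamini-Hochberg). It was the 1 of the 6 tested members called, where 3.17% of all 18783 genes tested were called, 1.14% higher and 2.03% lower. At an unadjusted edgeR p under 0.05 stood 2 members, NOX1 and DUOX1, and 13.9% of all genes.

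With Bojungikgi-tang, NOX1 had 14.4, 14.4 and 15.7 CPM at 500 µg/mL, against 20.7, 21.8 and 22.2 CPM at 20 µg/mL. The groups again stood apart. The difference was -0.54 ± 0.07 on the log2 scale, a ratio of 0.688 (95% interval -0.68 to -0.39; edgeR adjusted p = 3.7e-05). Here too NOX1 was the 1 of the 6 tested members called, where 1.76% of all genes were called, 0.602% higher and 1.16% lower. At an unadjusted edgeR p under 0.05 stood 2 members, NOX1 and NOXA1, and 12.9% of all genes. Without Bojungikgi-tang 500 µg/mL replicate 2, which stood apart, the NOX1 difference was -0.52 (edgeR adjusted p = 0.000293).

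With Banhasasim-tang, the extract in which NOX1 had been noticed, NOX1 had 8.77 and 9.69 CPM at 500 µg/mL, against 21.9 and 21.9 CPM at 20 µg/mL. These were the 2 lowest NOX1 levels of all 30 libraries. The log2 difference was -1.25 ± 0.09, a ratio of 0.421. NOX1 was chosen on this difference, so that it is the 1 of the 6 members past the threshold was fixed by the choice and nothing is read from it. Over all genes the share called was 7.82%, 3.82% higher and 4% lower. The difference was also -1.25 when mitochondrially encoded genes were left out of the table.

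At 100 µg/mL the mean NOX1 level of each extract lay between its levels at 20 and 500 µg/mL. Sayeok-tang gave 20.1, 19.8 and 20.5 CPM of NOX1 at 100 µg/mL, all below the 20 µg/mL libraries, a log2 difference of -0.23 ± 0.07 that did not pass (edgeR adjusted p = 0.939). None of the 6 members was called there by edgeR or by DESeq2, and NOX1 was the 1 with an unadjusted p under 0.05; over all genes 0 were called (0%) by edgeR and 0 by DESeq2, and 885 had an unadjusted p under 0.05. Bojungikgi-tang gave 18.4, 21.7 and 21.3 CPM at 100 µg/mL, which overlapped its 20 µg/mL libraries (log2 difference -0.07 ± 0.07, 95% interval -0.21 to 0.07, edgeR adjusted p = 1). None of the 6 members was called there by edgeR or DESeq2 and 0 had an unadjusted p under 0.05, where 0.0106% of all genes were called. Banhasasim-tang had 18.4 and 19.1 CPM at 100 µg/mL.

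Yijung-tang, with 1 library a dose and so no test, gave NOX1 levels of 24.8, 21.7 and 16.1 CPM at 20, 100 and 500 µg/mL. Their exact Poisson 95% intervals, which cover counting error only, were 23.4 to 26.2, 20.4 to 23.1 and 15 to 17.3 CPM, and did not overlap. The plot of NOX1 in every library shows the same order of mean levels by dose in each of the 4 extracts. The 20 and 100 µg/mL libraries of Bojungikgi-tang overlapped.

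**Figure D2:**
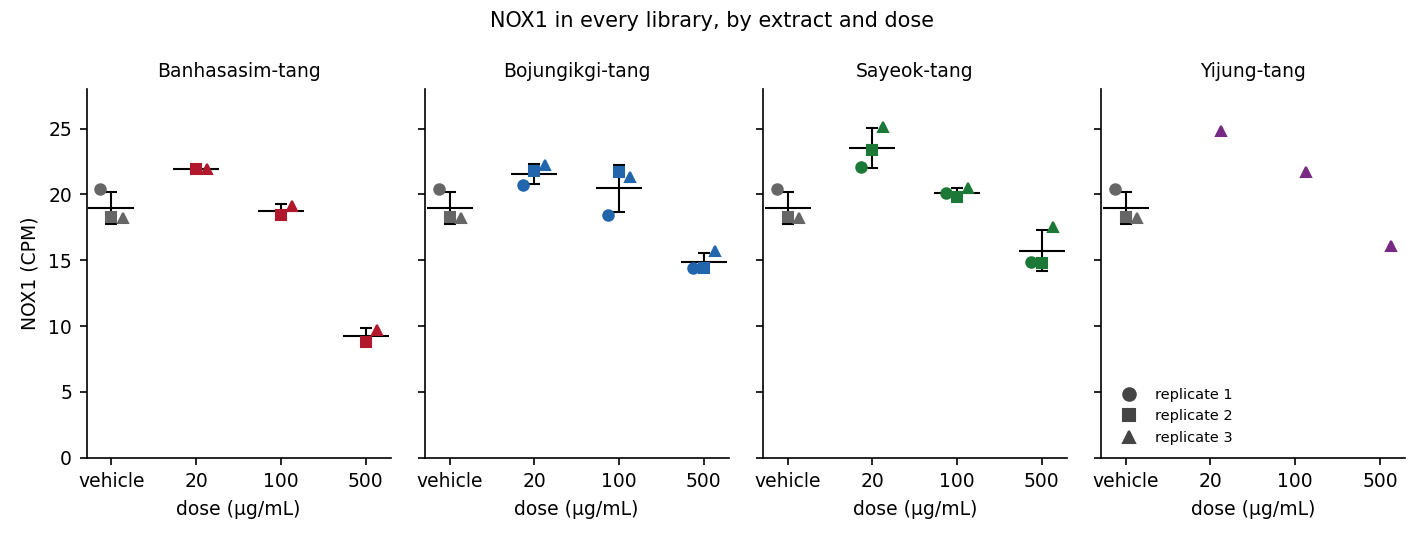
NOX1 in CPM in each of the 30 libraries, by extract (panels) and dose in µg/mL, with the 3 vehicle libraries repeated in each panel. Bars are the mean ± SD of groups with more than 1 library, and in each panel the 500 µg/mL libraries lie lowest, down to 8.77 CPM with Banhasasim-tang.

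Ordered by mean level, NOX1 ran from Yijung-tang at 20 µg/mL (24.8 CPM) and Sayeok-tang at 20 µg/mL (23.6 ± 1.5 CPM; SD) down to Banhasasim-tang at 500 µg/mL (9.23 ± 0.652 CPM). Most neighbours in this order overlapped. Between neighbours a gap opened at 4 steps: below Sayeok-tang at 20 µg/mL, below Banhasasim-tang at 20 µg/mL, below Banhasasim-tang at 100 µg/mL (18.7 ± 0.514 CPM) and below Bojungikgi-tang at 500 µg/mL (14.8 ± 0.746 CPM). The steps at 20 µg/mL part neighbours only, since Bojungikgi-tang at 20 µg/mL, lower in the order, reached 22.2 CPM. The step below Banhasasim-tang at 100 µg/mL set the 500 µg/mL groups of all 4 extracts under all other groups. The vehicle, at 19 ± 1.24 CPM (SD, n = 3), lay in the middle of the order and overlapped the 100 µg/mL groups of Banhasasim-tang, Bojungikgi-tang and Sayeok-tang.

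At 500 µg/mL, Bojungikgi-tang and Sayeok-tang were compared directly. NOX1 averaged 14.8 ± 0.746 CPM with Bojungikgi-tang and 15.7 ± 1.53 CPM with Sayeok-tang (SD, n = 3 each). The log2 difference was -0.08 ± 0.07 with a 95% interval of -0.23 to 0.07 (edgeR adjusted p = 0.66). No member was called by edgeR or DESeq2 in this pair, where 0.24% of all genes were called (0.0799% higher, 0.16% lower), and NOXA1 was the 1 member with an unadjusted p under 0.05. The fall between 500 and 20 µg/mL was also compared between the extracts: its difference, Bojungikgi-tang minus Sayeok-tang, was 0.05 ± 0.10 for NOX1 (95% interval -0.16 to 0.25, edgeR adjusted p = 0.942). Again no member was called by edgeR or DESeq2 and 0 had an unadjusted p under 0.05, where 0.0266% of all genes were called, 0.00532% higher and 0.0213% lower. Banhasasim-tang at 500 µg/mL lay below both extracts in each library, with 8.77 and 9.69 CPM, and that difference was not tested. The columns of Banhasasim-tang carry a different code prefix from those of both extracts, so extract and sample series cannot be told apart there.

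None of the other subunits of the NOX1 complex passed the test between 500 and 20 µg/mL. NOXO1 (ENSG00000196408, 16:1978917-1984192, minus strand), the organizer that brings the complex to the membrane, had 15.6, 15.7 and 13.5 CPM with Sayeok-tang at 500 µg/mL, against 16.5, 16.3 and 15.1 CPM at 20 µg/mL. The groups overlapped, with a log2 difference of -0.09 ± 0.09 (95% interval -0.27 to 0.09, edgeR adjusted p = 0.718). With Bojungikgi-tang, NOXO1 had 14, 13.3 and 15.6 CPM at 500 µg/mL, against 15.2, 15.7 and 16.3 CPM at 20 µg/mL (-0.14 ± 0.09, 95% interval -0.32 to 0.04, edgeR adjusted p = 0.548). With Banhasasim-tang it had 16.3 and 15.1 CPM at 500 µg/mL, against 16.9 and 16 CPM at 20 µg/mL. The NOXO1 intervals leave out a fall as large as the estimate for NOX1 in the same extract. NOXO1 shares 2133 exonic bases with TBL3 on the opposite strand, whose median was 3220.5 counts, and since the strand setting of the counting is not given, it is not known whether reads of the 2 genes were kept apart.

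CYBA (ENSG00000051523, 16:88643283-88651152, minus strand), which encodes p22phox, the membrane partner of several oxidases, had 262, 248 and 246 CPM with Sayeok-tang at 500 µg/mL, against 255, 266 and 235 CPM at 20 µg/mL. The ranges overlapped, and the log2 difference was 0.00 ± 0.08 (95% interval -0.15 to 0.16, edgeR adjusted p = 0.999). With Bojungikgi-tang it was -0.09 ± 0.08 (95% interval -0.25 to 0.07, edgeR adjusted p = 0.671). RAC1 (ENSG00000136238, 7:6374523-6403977, plus strand), the GTPase that also serves the cytoskeleton, had 519, 556 and 547 CPM with Sayeok-tang at 500 µg/mL, against 500, 518 and 524 CPM at 20 µg/mL. Its log2 difference was 0.07 ± 0.06 (95% interval -0.05 to 0.20, edgeR adjusted p = 0.685), and with Bojungikgi-tang 0.02 ± 0.06 (95% interval -0.11 to 0.15, edgeR adjusted p = 0.941). RAC1 has processed pseudogenes, of which RAC1P2 had a median of 324 counts, so how the counting split reads between RAC1 and its copies is uncertain.

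NOXA1 (ENSG00000188747, 9:137423350-137434406, plus strand), which activates NOX1, was the least abundant subunit and the least certain, on 17 to 60 counts a library. With Bojungikgi-tang it had 0.434, 0.384 and 0.566 CPM at 500 µg/mL, against 0.652, 0.836 and 0.612 CPM at 20 µg/mL. These groups did not overlap, but the log2 difference of -0.60 ± 0.25 did not pass (95% interval -1.11 to -0.09, edgeR adjusted p = 0.269). With Sayeok-tang the groups overlapped, at 0.75, 0.48 and 0.861 CPM with 500 µg/mL, against 0.669, 0.681 and 0.529 CPM with 20 µg/mL (0.11 ± 0.25, 95% interval -0.39 to 0.62, edgeR adjusted p = 0.906). At this depth a fall of NOXA1 as large as that of NOX1 is within the interval with Bojungikgi-tang and not with Sayeok-tang.

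**Figure D3:**
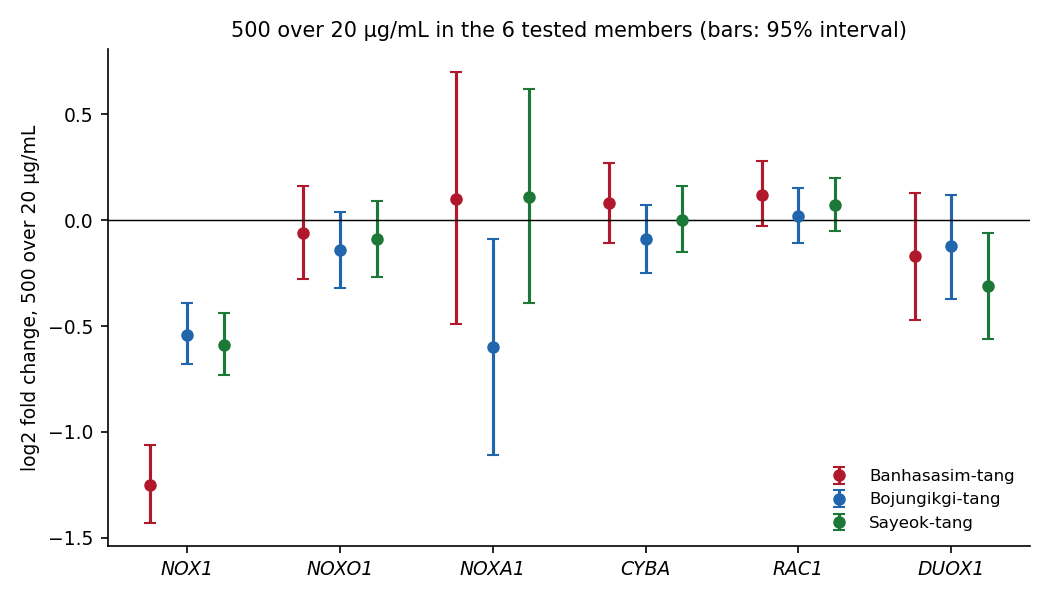
Log2 fold change of 500 over 20 µg/mL for the 6 tested members in 3 extracts, with 95% intervals from the edgeR fit; Banhasasim-tang is shown as a description. NOX1 lies at -1.25, -0.54 and -0.59, while the intervals of NOXO1, CYBA and RAC1 include 0 in each extract. The intervals of NOXA1 with Bojungikgi-tang (-1.11 to -0.09) and DUOX1 with Sayeok-tang (-0.56 to -0.06) leave out 0, though neither was called.

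The dual oxidases were scarce in this line. DUOX1 (ENSG00000137857, 15:45129933-45165576, plus strand) had 1.73 to 2.64 CPM over all libraries. With Sayeok-tang it had 1.73, 2.31 and 1.78 CPM at 500 µg/mL, against 2.32, 2.38 and 2.6 CPM at 20 µg/mL, groups that touched without overlapping. The log2 difference was -0.31 ± 0.12 and did not pass (95% interval -0.56 to -0.06, edgeR adjusted p = 0.211). With Bojungikgi-tang, DUOX1 had 2.15, 2.19 and 2.05 CPM at 500 µg/mL, against 2.46, 2.48 and 2.02 CPM at 20 µg/mL, and the groups overlapped (-0.12 ± 0.12, 95% interval -0.37 to 0.12, edgeR adjusted p = 0.715).

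DUOX2 (ENSG00000140279, 15:45092650-45114344, minus strand), the inducible dual oxidase of inflamed gut, had 0 to 9 counts a library and 132 counts over all 30. Its partner DUOXA2 (ENSG00000140274, 15:45114321-45118421, plus strand) had 7 counts in all and none in 24 libraries. Both failed the filter on low counts and were not tested. Each library of DUOXA2 was at or under a floor of 3 counts, so no fold is given. DUOX2 counts summed over a group were 17 with Sayeok-tang at 500 µg/mL, 17 with Bojungikgi-tang at 500 µg/mL, 3 with Banhasasim-tang at 500 µg/mL (2 libraries) and 17 in the vehicle, and no group summed to more than 17.

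Against the vehicle, 7 calls of members were made over 5 comparisons, and 5 of the 7 were lost when vehicle replicate 1 was left out. The 2 that kept passing were both of NOX1. The vehicle columns carry a different code prefix from all extract columns, and what the prefix stands for is not given. Prefixes also differ between the Banhasasim-tang and Yijung-tang columns and the Bojungikgi-tang and Sayeok-tang columns. The titles put all 30 libraries in BatchE. In each comparison with the vehicle, the extract and a difference between such sample series cannot be told apart. With Bojungikgi-tang at 500 µg/mL, NOX1 had 14.4, 14.4 and 15.7 CPM, against 20.4, 18.3 and 18.2 CPM in the vehicle. It fell by 0.35 ± 0.07 on the log2 scale (edgeR adjusted p = 0.000915), and by 0.30 without vehicle replicate 1 (edgeR adjusted p = 0.00929), but did not pass in a fit of these groups alone (-0.35, edgeR adjusted p = 0.0598). NOXO1 (-0.30 ± 0.09, edgeR adjusted p = 0.0119) and RAC1 (-0.19 ± 0.06, edgeR adjusted p = 0.0219) fell there too, so that 3 of the 6 tested members fell, where 29.7% of all genes changed, 14.3% rising and 15.4% falling. That count of 5579 genes was 3101 without Bojungikgi-tang 500 µg/mL replicate 2 and 2826 without vehicle replicate 1. Without vehicle replicate 1, NOXO1 was at -0.21 (edgeR adjusted p = 0.102) and RAC1 at -0.07 (edgeR adjusted p = 0.297). Without Bojungikgi-tang 500 µg/mL replicate 2, NOXO1 was at -0.24 (edgeR adjusted p = 0.0708) and RAC1 at -0.16 (edgeR adjusted p = 0.103).

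With Sayeok-tang at 500 µg/mL, NOX1 lay 0.27 ± 0.07 below the vehicle on the log2 scale (-0.27, edgeR adjusted p = 0.011), the 1 of 6 members called where 16.6% of all genes changed, 8.33% rising and 8.27% falling. That call was lost without vehicle replicate 1 (-0.22, edgeR adjusted p = 0.0764), and also without Sayeok-tang replicate 1 (-0.24, edgeR adjusted p = 0.0513) or replicate 2 (-0.23, edgeR adjusted p = 0.0721). With Banhasasim-tang at 500 µg/mL, described only, the log2 difference of NOX1 from the vehicle was -1.04 ± 0.08, a ratio of 0.488. These are the libraries on which NOX1 was chosen, so nothing is read from its being the 1 of the 6 members past the threshold. Over all genes the share called was 15.3%, 8.16% higher and 7.12% lower.

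At 20 µg/mL, NOX1 lay above the vehicle, and here too extract and sample series cannot be told apart. Sayeok-tang at 20 µg/mL had 22.1, 23.4 and 25.1 CPM, against 20.4, 18.3 and 18.2 CPM in the vehicle, with no overlap. NOX1 rose by 0.31 ± 0.07 on the log2 scale (edgeR adjusted p = 0.00376), and by 0.37 without vehicle replicate 1 (edgeR adjusted p = 0.00487). RAC1 fell there by 0.18 ± 0.06 (-0.18, edgeR adjusted p = 0.0439), so 1 of the 6 members rose and 1 fell, where 18.9% of all genes changed, 8.86% rising and 10.1% falling. Bojungikgi-tang at 20 µg/mL had 20.7, 21.8 and 22.2 CPM of NOX1, also above the vehicle in each library, with a log2 difference of 0.19 ± 0.07 that did not pass (edgeR adjusted p = 0.0572) but stood near the threshold: NOX1 passed with DESeq2 (adjusted p = 0.0341), with the replicate block (edgeR adjusted p = 0.0382), with no filter (edgeR adjusted p = 0.0457) and without mitochondrially encoded genes (edgeR adjusted p = 0.0496), and its adjusted p was up to 0.164 when a library was left out. RAC1 was the 1 member called there (-0.21 ± 0.06, edgeR adjusted p = 0.0216), where 18.3% of all genes changed, 9.11% rising and 9.2% falling.

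RAC1 was the member most tied to vehicle replicate 1. The vehicle libraries had 677, 541 and 528 CPM of RAC1, replicate 1 being the highest of all 30 libraries. The same replicate held the highest CYBA (296 CPM) and NOXO1 (19.9 CPM) levels. Without it RAC1 was at -0.05 for Sayeok-tang at 20 µg/mL (edgeR adjusted p = 0.555) and -0.09 for Bojungikgi-tang at 20 µg/mL (edgeR adjusted p = 0.289), so no RAC1 call was left. The RAC1 calls at 20 µg/mL were also lost without some of the extract libraries, each of replicates 1, 2 and 3 of Sayeok-tang (edgeR adjusted p of 0.166, 0.098 and 0.0834) and replicates 1 and 3 of Bojungikgi-tang (edgeR adjusted p of 0.0795 and 0.0771). With Banhasasim-tang at 100 µg/mL, NOX1 had 18.4 and 19.1 CPM, within the vehicle range, and a log2 difference of -0.01 ± 0.08 (95% interval -0.18 to 0.15, edgeR adjusted p = 0.934). There 0 of the 6 members were called by edgeR or DESeq2 and 2, NOXO1 and RAC1, had an unadjusted p under 0.05, where 11.9% of all genes were called, 6.3% higher and 5.56% lower. That count of 2228 genes was 201 without Banhasasim-tang 100 µg/mL replicate 3, 1249 without its replicate 2 and 620 without vehicle replicate 1. CYBA was called in none of the tested comparisons, its lowest edgeR adjusted p being 0.0814 for Bojungikgi-tang at 500 µg/mL against the vehicle (-0.18 ± 0.08).

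**Figure D4:**
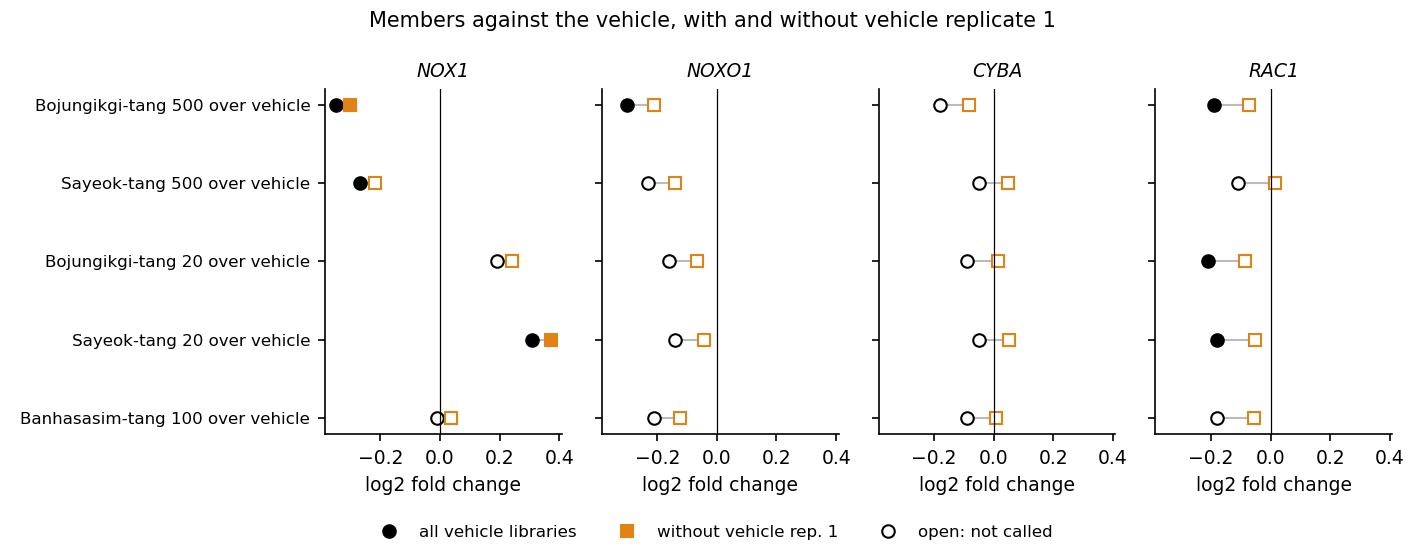
Log2 fold change of NOX1, NOXO1, CYBA and RAC1 against the vehicle in 5 comparisons, with all vehicle libraries (circles) and without vehicle replicate 1 (squares); filled symbols were called. RAC1 moves toward 0 and loses its calls without that library, while NOX1 stays at -0.30 for Bojungikgi-tang at 500 µg/mL and at 0.37 for Sayeok-tang at 20 µg/mL.

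Markers of the cell line also stood apart against the vehicle. Of the 10 colon epithelium genes, 7 fell and 1 rose with Sayeok-tang at 500 µg/mL and 7 fell with Bojungikgi-tang at 500 µg/mL, with all 3 vehicle libraries in the fit, where 16.6% and 29.7% of all genes were called. At 20 µg/mL, where NOX1 lay above the vehicle, 5 of the 10 fell with Sayeok-tang and 4 with Bojungikgi-tang, where 18.9% and 18.3% of all genes were called. Their summed level was 11411 to 13363 CPM in the vehicle, above the median of 10428 CPM over all 30 libraries. Between 500 and 20 µg/mL, where NOX1 fell, 3.17% of all genes were called with Sayeok-tang and 1.76% with Bojungikgi-tang. Of the 10, 1 fell in both extracts, VIL1, which encodes the microvillus protein villin. It was at -0.29 ± 0.04 with Sayeok-tang (edgeR adjusted p = 8.9e-06) and -0.16 ± 0.04 with Bojungikgi-tang (edgeR adjusted p = 0.017), while KRT20, a keratin of mature colonocytes, rose with Sayeok-tang (0.29 ± 0.05, edgeR adjusted p = 0.000802). VIL1 and KRT20 were chosen after their values were seen, and the part of such markers in the NOX1 result was not tested.

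The rest of the oxidase family was looked at where NOX1 fell. Of 16 further oxidase genes and regulators, 11 were tested, and 0 were called by edgeR between 500 and 20 µg/mL with either extract (0 with DESeq2, and 1 in each extract at an unadjusted p under 0.05). The phagocyte oxidase CYBB and the genes NOX3 and NCF4 were named after their values were seen. CYBB had 1.74 to 2.53 CPM over all libraries, and NOX3 and NCF4 had 0 counts in each. The median log2 difference of the 11 was 0.00 with Sayeok-tang and -0.06 with Bojungikgi-tang, against 0.004 and 0.001 over all genes tested.

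Of 17 enzymes that remove superoxide and hydrogen peroxide, 16 were tested. With Sayeok-tang 2 rose between 500 and 20 µg/mL, both peroxiredoxins, which reduce peroxides, and none fell, where 3.17% of all genes were called and 1.14% rose; with Bojungikgi-tang 0 were called (0 with DESeq2 and 2 at an unadjusted p under 0.05). PRDX1 had 576 ± 15.9 CPM at 500 µg/mL, against 481 ± 16.9 CPM at 20 µg/mL of Sayeok-tang (SD, n = 3 each), a rise of 0.26 ± 0.07 on the log2 scale in the edgeR fit (adjusted p = 0.0348). PRDX6 had 226 ± 4.82 CPM at 500 µg/mL, against 194 ± 4.4 CPM at 20 µg/mL (0.22 ± 0.06, edgeR adjusted p = 0.0412). The vehicle had 558 ± 46.4 CPM of PRDX1 and 219 ± 9.24 CPM of PRDX6 (SD, n = 3). Both vehicle means lay between the means at 20 and 500 µg/mL of Sayeok-tang. With Banhasasim-tang, described only, 1 of the 16 was higher past the threshold and 0 lower, where 7.82% of all genes were past it. GPX8, a peroxidase of the endoplasmic reticulum, averaged 2.64 CPM at 500 µg/mL of Banhasasim-tang, against 0.995 CPM at 20 µg/mL. It averaged 0.751 CPM with Bojungikgi-tang and 0.836 CPM with Sayeok-tang at 500 µg/mL, and 0.763 CPM in the vehicle. GPX8 was chosen after its values were seen.

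**Figure D5:**
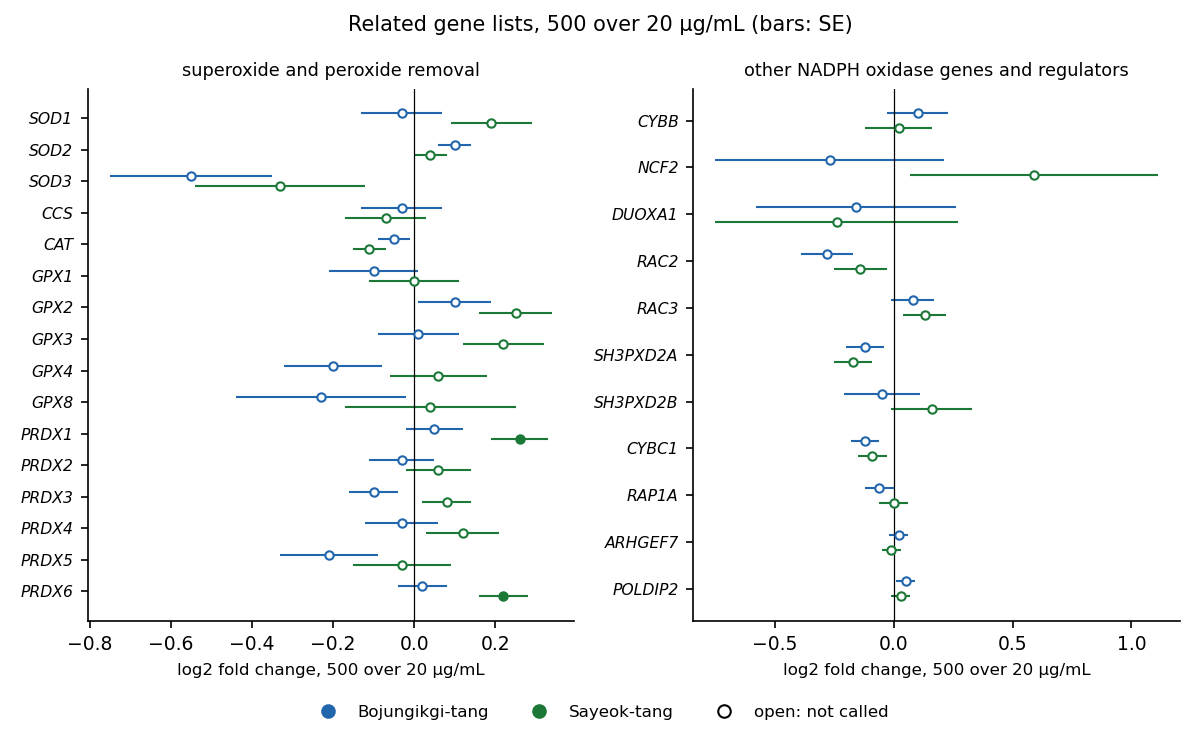
Log2 fold change of 500 over 20 µg/mL with its SE for the tested genes of 2 lists, with Bojungikgi-tang and Sayeok-tang; filled points were called. PRDX1 and PRDX6 are filled with Sayeok-tang, and no gene of the oxidase list is filled.

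Of 16 factors described upstream of NOX1 or DUOX2 in gut epithelium, 15 were tested between 500 and 20 µg/mL. With Sayeok-tang 2 fell and 0 rose, where 3.17% of all genes were called, 2.03% lower. With Bojungikgi-tang 1 fell and 0 rose, where 1.76% of all genes were called, 1.16% lower. The called factors are not named here. GATA6 and CDX2, whose family motifs stand in the NOX1 promoter, were also read. GATA6, whose family binds GATAA, was at -0.03 ± 0.06 with Sayeok-tang and 0.04 ± 0.05 with Bojungikgi-tang, and did not pass the edgeR test. CDX2, whose family binds TTTATG, was at -0.10 ± 0.08 with Sayeok-tang and -0.06 ± 0.08 with Bojungikgi-tang, and did not pass either. Both were picked for the motifs above, after their values were seen.

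Finally, genes were ranked by how closely their mean log2 levels over the 13 groups followed NOX1, among 10536 named genes above a floor on mean CPM. The highest Pearson correlations were with SESN1, a stress-induced sestrin (r = 0.98), CD24, a surface glycoprotein (r = 0.974), ACSS1, a mitochondrial acetyl-CoA synthetase (r = 0.972), IMPA1, an inositol monophosphatase (r = 0.969), and C3orf52 (r = 0.968). The lowest were with NR1H3, the oxysterol receptor LXR alpha (r = -0.976), AHCYL1 (r = -0.973), TKT, the pentose phosphate enzyme transketolase (r = -0.972), ALDH3A1, an aldehyde dehydrogenase (r = -0.972), and TRIM16 (r = -0.966). SESN1 averaged 25.2 CPM with Banhasasim-tang at 500 µg/mL, against 38 CPM at 20 µg/mL, and ALDH3A1 averaged 62.2 CPM at 500 µg/mL, against 20.8 CPM at 20 µg/mL. The partners of NOX1 that were ranked were not near either end: r was 0.245 for NOXO1, -0.083 for CYBA and -0.494 for RAC1. NOXA1, at a median of 0.653 CPM, and the dual oxidases were below that floor and were not ranked. These values describe 13 groups, include the low NOX1 point of Banhasasim-tang at 500 µg/mL, and carry no test.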

How the data were processed

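Whole-culture mRNA of 30 HT29 libraries was sequenced as 100 bp paired reads with a directional kit, from 1 µg of total RNA with RIN above 7, per the labels' protocols. The authors deposited a table of expected counts from RSEM 1.3.3 over STAR 2.7.3a alignments to GRCh38, after FastQC 0.11.9 and Trim Galore 0.6.5, per the submitters' processing notes. Which annotation release and which strand setting were used is not given in the sources used here. Before testing, values were rounded to whole numbers, a step of at most 0.5 that touched 25.48% of those above 0. Of 270 value columns, 240 belong to no sample described here and were not used. The label of the vehicle says 0.1% DMSO and the series text 2%; the label was followed.

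Symbols came from the files and GENCODE 29 (41638 IDs, 68.62%), coordinates and exon lengths from GENCODE 29. The filterByExpr filter, with a minimum count of 10, kept 18783 genes and 6 of the 8 members, and fitted with edgeR 4.0.16 (TMM, robust quasi-likelihood, 13 group means over 30 libraries, 17 residual degrees of freedom). A call is a Benjamini-Hochberg adjusted p under 0.05 over all genes tested. An SE is the log2 fold change over the root of F. CPM values use TMM-scaled totals. The code was tested on simulated data. Alternatives were DESeq2 1.42.0, RLE factors, no filter, a fit of the compared groups only, a replicate block, each replicate left out and, chosen after seeing the data, no mitochondrially encoded genes. R 4.3.3 and Python 3.11.15 were used.

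The members and the lists were chosen with earlier results of these data known. From each list, the named genes are at most 6 of those called, by smallest p, and others are said to be chosen after their values were seen. No 2 replicates of the same group agreed within sampling noise. Some genes of the lists are not reported here.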

Additional observations from a re-analysis of the deposited data

How the results depend on the processing

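The fall of NOX1 between 500 and 20 µg/mL stayed the 1 call among the members with Sayeok-tang and with Bojungikgi-tang under every alternative run, with log2 values of -0.67 to -0.54 and -0.59 to -0.52 when each library was left out, and no member was called between 100 and 20 µg/mL, between Bojungikgi-tang and Sayeok-tang or in the difference of their falls. Described NOX1 values with Banhasasim-tang were -1.33 to -1.18 against 20 µg/mL and -1.11 to -0.96 against the vehicle when a library was left out. Of 818 values of a member under an alternative, 50 changed sign, 0 of them where the member had been called.

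Counts of members called against the vehicle did move. With Bojungikgi-tang at 20 µg/mL (1 as reported) there were 2 (RAC1 and NOX1) with DESeq2, with no filter, with the replicate block and without mitochondrially encoded genes, 0 in a fit of the compared groups only, and 0 to 2 leaving out a library. With Bojungikgi-tang at 500 µg/mL (3) there were 0 in the fit of the compared groups only and 1 to 4 leaving out a library. With Sayeok-tang at 20 µg/mL (2) there was 1 with the compared groups only, with the block, with RLE factors and without mitochondrially encoded genes, and 1 to 3 leaving out a library. With Sayeok-tang at 500 µg/mL (1) there were 2 with no filter and with the block, 0 with the compared groups only, and 0 to 2 leaving out a library. With Banhasasim-tang at 100 µg/mL (0) there were 0 to 2 leaving out a library. The cause was not tested. Replicate numbers are in the titles, but in no comparison of 3 pairs did every pair correlate above 0.1, so the block is given only as an alternative. In the comparison of 2 pairs, Banhasasim-tang at 100 µg/mL against the vehicle, each pair correlated at 0.166. Every library correlated best with its own number there, in Sayeok-tang at 20 µg/mL against the vehicle and in Sayeok-tang at 100 against 20 µg/mL.

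Counts over all genes moved by more than 1.5 times in places. The fit of the compared groups only, which has fewer libraries, called 53 genes (331 as reported) for Bojungikgi-tang at 500 against 20 µg/mL, 189 (5579) against the vehicle at 500 µg/mL and 1985 (3440) at 20 µg/mL, 1264 (3117) and 1537 (3554) for Sayeok-tang at 500 and 20 µg/mL against the vehicle, 39 (2228) for Banhasasim-tang at 100 µg/mL, 2 (45) between the extracts, 3 (5) for the difference of falls, and 5 (2) and 1 (0) for Bojungikgi-tang and Sayeok-tang at 100 against 20 µg/mL. With no filter, 606, 593, 182, 76 and 112 genes were called for Bojungikgi-tang at 500 against 20 µg/mL, between the extracts, for the difference of falls, and for Bojungikgi-tang and Sayeok-tang at 100 against 20 µg/mL. DESeq2 called 98 between the extracts and 10 for the difference of falls. Without vehicle replicate 1, 2826 and 845 genes were called for Bojungikgi-tang at 500 and 20 µg/mL, and 1438 and 991 for Sayeok-tang. Leaving out any 1 library gave 164 to 355 genes for Bojungikgi-tang at 500 against 20 µg/mL (lowest without its 20 µg/mL replicate 2), 386 to 445 for Sayeok-tang (596 as reported) and 22 to 72 between the extracts. Depth limits DUOX2 (0 to 9 counts a library) and DUOXA2 most, neither of which could be tested, and among the tested members NOXA1 (17 to 60 counts).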
